A study of Mus musculus with 9 samples.

Results

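Ion channels, aquaporins and cation pumps move ions and water across cell membranes, and 170 of the 15158 gene symbols in the deposited expression table belonged to these families. They were picked by symbol: potassium channels (Kcn), voltage-gated calcium and sodium channels (Cacn, Scn), chloride channels and their relatives (Clcn, Clca, Clic, Ano, Lrrc8), TRP channels, Piezo, Hcn, P2rx, calcium release and store-operated channels (Ryr, Itpr, Orai), aquaporins, and the sodium-potassium and calcium pumps (Atp1, Atp2). A symbol that fits these patterns (1 in all) was left out of the rule. The patterns also take in Trpc4ap, which binds a TRP channel, Kcnrg, a regulator, Kcnq1ot1, a long noncoding RNA, and the Clca proteins, none of which forms a channel pore.

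RNA of the uterine luminal epithelium, the cell layer that faces an arriving embryo, was sequenced after laser capture on pregnancy day 4 from females housed to the age of 8 weeks. There were 3 genotypes with 3 libraries each. All carried the Wnt7acre allele, which expresses cre recombinase under Wnt7a control in the epithelium. Wnt7acre animals were the controls, ePRAoe animals (Wnt7acre/+PgrALsL/+) also carried an allele for overexpression of progesterone receptor isoform A, and ePRBoe animals (Wnt7acre/+PgrBLsL/+) an allele for isoform B. The labels number the biological replicates but name no animal, strain or pool, so p-values measure the spread between these 9 libraries.

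An epithelium absorbs fluid when sodium enters from the lumen through the epithelial sodium channel (subunits Scnn1a, Scnn1b and Scnn1g) and is pumped out at the base by the sodium-potassium pump, and secretes fluid when chloride leaves toward the lumen. Potassium channels keep the membrane voltage that drives both, and aquaporins let water follow. Calcium crosses such a layer by entering through Trpv6 or Trpv5, binding to a small carrier protein such as the calbindin S100g, and leaving through a plasma membrane calcium pump such as Atp2b1 or the sodium-calcium exchanger Slc8a1. In the uterus before implantation these routes set how much fluid the lumen holds and what ions it contains.

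Values are FPKM, that is, sequenced fragments per kilobase of gene and per unit of library depth, which makes levels of different genes comparable, while comparisons between libraries depend on how libraries are scaled. Libraries summed to 272213 to 314010 FPKM, and 11074 to 12300 genes reached 1 FPKM. The receptor gene Pgr stood at 17.4, 3.82 and 6.62 FPKM in the Wnt7acre libraries (replicates 1 to 3), at 41.7, 49.5 and 42.8 in ePRAoe, and 38.1, 38.3 and 45.9 in the ePRBoe libraries. Every overexpressing library thus lay above every control, but ePRAoe and ePRBoe overlapped, and a value per gene does not tell the isoforms apart. Markers of the luminal epithelium (8 genes, among them Epcam and Krt8) summed to 1069 to 1582 FPKM with overlapping ranges. Stromal markers (9 genes) summed to 73.8 to 103 FPKM in the controls, 181 to 329 in ePRAoe and 311 to 466 in ePRBoe, and 7 of the 9 rose in each overexpressing genotype. Immune markers (8 genes) summed to 86.6 to 170, 68.5 to 88.3 and 244 to 283 FPKM, with 3 of 8 lower in ePRAoe and 5 of 8 higher in ePRBoe. Endothelial markers (6 genes) summed to 12.1 to 19.1, 14.5 to 30.3 and 46.1 to 63 FPKM, and 2 of 6 rose in ePRBoe. Smooth muscle and pericyte markers (8 genes) summed to 17.6 to 35.5, 26.4 to 56.3 and 64.6 to 158 FPKM, with 2 of 6 tested higher in ePRBoe. The defining genes Myh11 and Cnn1 exceeded 1 FPKM in a single library, ePRBoe replicate 2 (9.49 and 4.29 FPKM). Gland markers (6 genes) summed to 16.9 to 46.2, 2.26 to 8.98 and 10.7 to 54.1 FPKM, and of 3 tested in ePRAoe Spink1 fell and Aldh1a1 rose. Foxa2 and Cxcl15 were under 1 FPKM in every ePRAoe library and in 2 of 3 controls. The part of these other cells in the results below was not tested, and in such bulk samples fewer cells of a type and less RNA per cell cannot be told apart.

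**Figure D1:**
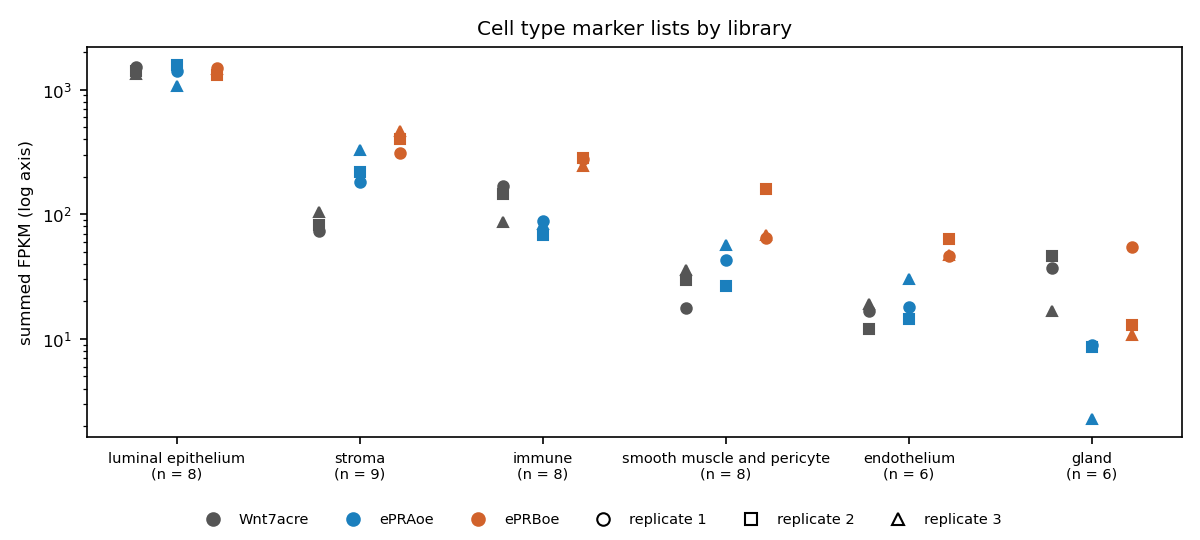
Summed FPKM of each cell type marker list in each library on a log axis, with 1 point per library, colour for genotype and shape for replicate number. Luminal epithelial markers overlap between genotypes, whereas the stromal sums of 311 to 466 FPKM in ePRBoe lie above all control sums of 73.8 to 103 FPKM.

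The epithelium used a small part of this repertoire. Of the 170 genes, 46 reached 1 FPKM in all 9 libraries, 40 had a mean of at least 5 FPKM and 7 a mean of at least 50 FPKM. Among those 7 were the pump subunit Atp1b3, the calcium pump of the endoplasmic reticulum Atp2a2, the calcium release channel Itpr2, the chloride channel protein Clic1, the potassium channel Kcnk1 and the aquaporin Aqp11. Together Clic1, Kcnk1 and Itpr2 made up 23.8% to 31.4% of the FPKM of the 170 genes in every library. In sum the 170 genes took 0.453% to 0.597% of all FPKM of a library. For 64 genes no library reached 1 FPKM, and 24 more did so in only 1 or 2 libraries. These 88 did not pass the filter for testing (at least 1 FPKM in at least 3 libraries), and the other 82 were tested along with all 12347 genes that passed. Kcnc2 passed only through its Wnt7acre libraries and Orai2 only through its ePRBoe libraries, so counts over the 82 describe the genes that passed and not the families as a whole.

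**Figure D2:**
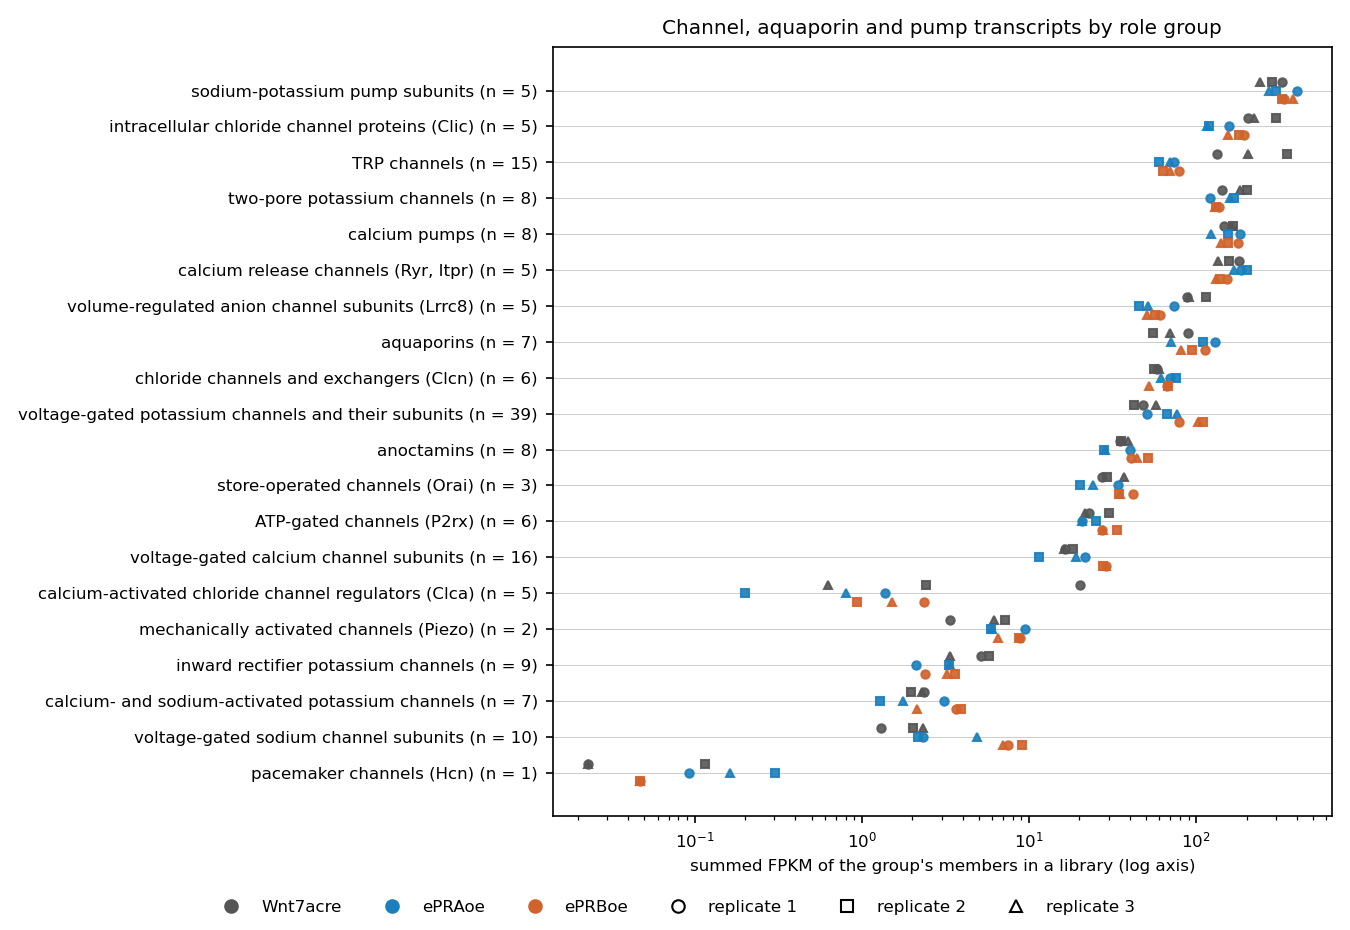
Summed FPKM of the genes of each of 20 role groups in each library, on a log axis, with colour for genotype, shape for replicate and the number of genes in the group in brackets. The TRP channels show a wide gap, from 133 to 351 FPKM in the controls against 59.8 to 73.7 (ePRAoe) and 63.3 to 79 (ePRBoe).

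The question put to each genotype was which of these genes differed from the control epithelium. Changes are given as differences of log2(FPKM + 1) from limma, a linear model fitted over all genes with terms for genotype and sequencing run. A gene is said to have risen or fallen where its Benjamini-Hochberg adjusted p over all 12347 genes was at most 0.05. In ePRAoe 20 of the 82 tested genes changed (24.4%), against 16.2% of all genes tested; 8 rose (9.76%, against 7.2%) and 12 fell (14.6%, against 8.98%). The median change of the 82 was 0.00, beside -0.03 over all genes. In ePRBoe 13 of 82 changed (15.9%, against 8.89% of all genes); 8 rose (9.76%, against 6.41%) and 5 fell (6.1%, against 2.48%). The median of the 82 was 0.18, beside 0.10 over all genes. Whether these shares differ from the background was not tested.

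The ePRBoe median depends on how libraries are scaled to each other and on the pseudocount. For the 82 genes it was 0.10 with median-of-ratios factors, 0.01 with quantile normalization, 0.40 with values rescaled to TPM and 0.41 with a pseudocount of 0.25. With median-of-ratios factors the median of all genes moved from 0.101 to -0.031 in ePRBoe against Wnt7acre, and the share of its calls that were rises moved from 72.1% to 56.4% (55.7% with quantile normalization). The ePRBoe calls among the 82 then split into 7 rises and 7 falls with median-of-ratios factors, and 6 rises and 7 falls with quantile normalization. Both overexpressing genotypes were compared with the same 3 controls, so their changes are not independent. Altogether 26 genes changed in at least 1 comparison, and 7 changed in both. Of the 7, Trpv6, Trpm6 and Atp2b1 fell, and Clic3, Kcnk4 and P2rx6 rose. The remaining gene, Kcnc2, was lower in both, but it entered the test only through its controls, so the filter favoured a fall. Kcnk4 and P2rx6 were under 1 FPKM in every control and entered the test only through overexpressing libraries. For them the filter favoured a rise. The same holds for Atp2b4, Cacna2d1 and Scn4b, which rose in ePRBoe, and for Kcnab3, which rose in ePRAoe.

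The libraries came from 3 sequencing runs, and all 3 ePRBoe libraries shared run 1 with only 1 control, Wnt7acre replicate 3. Without that library 1 of the 13 ePRBoe calls was left, that of Cacng7, and each of the 13 was lost when at least 1 library was omitted. Of the 20 ePRAoe calls 7 held with any library left out in turn and under every other setting tried, namely Trpv6, Trpm6, Atp2b1, Clic3, Clic4, Clcn5 and Lrrc8b. Other settings ended further calls. A fit of only the genotypes compared ended those of Ano10, Aqp11, Clic1, Kcnab3, Kcnc2, Kcnq1, Lrrc8d, P2rx4 and Trpm3 in ePRAoe (adjusted p = 0.0641 to 0.152) and of Atp2b4, Atp2c2 and Cacna2d1 in ePRBoe (adjusted p = 0.0594 to 0.116). A fit with no run term ended those of Aqp11, Kcnab3, Kcnq1, Lrrc8d and Trpm3 in ePRAoe (adjusted p = 0.0523 to 0.169). Another scaling ended those of Ano10, Kcnc4 and Trpm3 in ePRAoe (adjusted p = 0.0513 to 0.0749) and of Atp2b4, Cacna2d1, Kcnc2 and P2rx6 in ePRBoe (adjusted p = 0.0512 to 0.148). Another filter, pseudocount or variance model ended those of Ano10, Aqp11, Kcnc4 and Trpm3 in ePRAoe (adjusted p = 0.0511 to 0.0587) and of Cacna2d1 and Kcnc2 in ePRBoe (adjusted p = 0.0512 to 0.0598). Among the partner genes described below, such settings ended calls of Calb1, Fxyd4, Fxyd5, Gja1, Mcoln2, Slc12a2, Slc24a3 and Ttyh1 (adjusted p = 0.0509 to 0.13 against Wnt7acre). Other settings also gave calls that the reported fit lacks, among them Atp2b4 in ePRAoe and Lrrc8b, Kcnq1, Clcn5, Kcnc4 and Kcne3 in ePRBoe (adjusted p = 0.014 to 0.0499). Without Wnt7acre replicate 1, Itpr3, Orai1, Cacnb3, Kcnk1, Kcnk5 and Lrrc8a were among those that passed in ePRAoe (adjusted p = 0.00142 to 0.0416). Each run held 1 control and 1 ePRAoe library, so the ePRAoe difference could also be read within each run. With the run term, leaving out either of the 2 takes away the other's weight in this difference. Both omissions give the same ePRAoe change, so losses named below for both count 1 run pair. For runs 2 and 3 the same holds for the ePRBoe change. All ePRBoe libraries lay in run 1, so leaving out 1 of them alters the estimated spread and not the ePRAoe change.

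**Figure D3:**
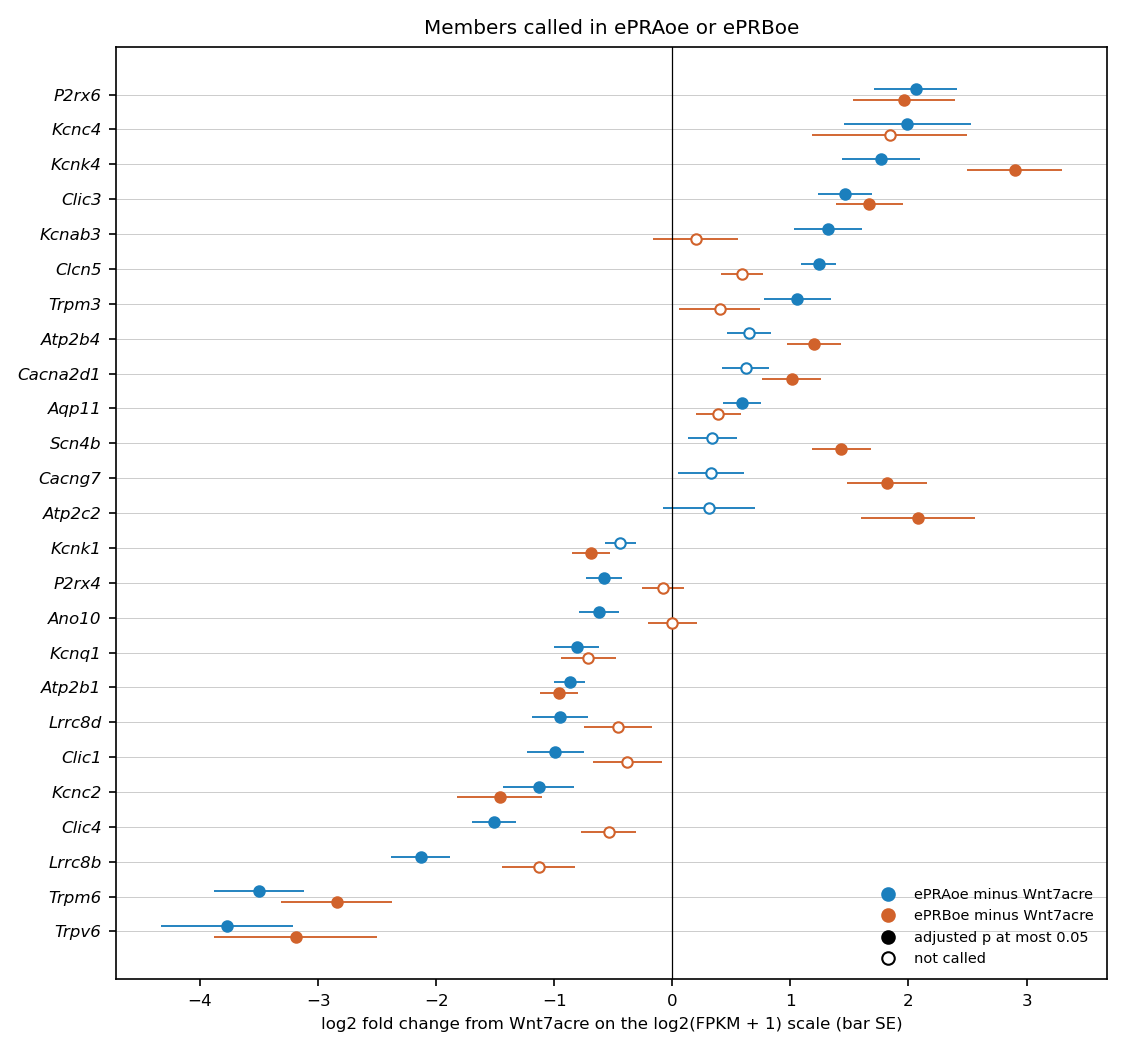
Log2 fold changes from Wnt7acre for 25 of the 26 genes that changed in ePRAoe (blue) or ePRBoe (orange), on the log2(FPKM + 1) scale, with bars for the standard error and open symbols where the adjusted p was above 0.05. Trpv6 and Trpm6 lie farthest to the left in both genotypes, and Kcnk4 lies farthest to the right in ePRBoe at 2.90.

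The promoters of these genes were searched for a sequence core, because progesterone receptor binds an inverted repeat and several of the genes moved together. The motif was ACANNNTGT, which reads the same on both strands, in the 300 bases from 250 before to 50 after each gene start in RefSeq (GRCm38.p6, the mm10 build). Of 11733 genes of the table with a promoter entry 648 (5.52%) held it, as did 11 of the 126 channel, aquaporin and pump genes with an entry (8.73%). Among genes that rose in either genotype 3 of 11 with an entry held it, and among those that fell 0 of 11. A gene was counted if any of its promoter entries held the motif, so genes with several entries had more chances to match. Clcn5 and Trpm3 each also have an entry without the motif, and whether these shares differ was not tested. The 3 matches are shown with 10 bases on each side, 5′ to 3′ on the strand of the gene and with the motif in capitals. They are Clcn5 at chrX:7319576-7319604 (minus strand), Clic3 at chr2:25456819-25456847 (plus strand) and Trpm3 at chr19:22448035-22448063 (plus strand), the last inside the annotated gene, at an internal start.
Clcn5: ctcaggataaACAGTTTGTtctaaagaca
Clic3: ctcccaaggcACACCCTGTgccctgggct
Trpm3: gactccgaccACAGGCTGTtttgtgcagg
The motif starts 236 bases before the start of Clcn5, 14 before that of Clic3 and 163 before that of Trpm3. A match describes these letters only, and receptor binding was not measured here.

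Calcium and magnesium entry channels showed the largest falls. Trpv6 (ENSMUSG00000029868.13, mm10 chr6:41620624-41636405), the channel through which epithelia absorb calcium, stood at 36.6, 202 and 93 FPKM in the Wnt7acre libraries (replicates 1 to 3), at 7.97, 3.53 and 5.89 in ePRAoe, and 10.6, 3.48 and 10.2 in the ePRBoe libraries. Every overexpressing library lay below every control library, although the controls themselves spanned 36.6 to 202 FPKM. Trpv6 fell by 3.77 in ePRAoe (SE 0.56, adjusted p = 0.00587), a 13.7-fold difference on the log2(FPKM + 1) scale, and fell by 3.19 in ePRBoe (SE 0.69, adjusted p = 0.0309), a 9.16-fold difference. Within the runs the ePRAoe difference was -4.37, -4.88 and -2.07, and the ePRBoe difference in run 1 was -3.50. In ePRBoe the gene no longer passed without Wnt7acre replicate 2 or 3, without ePRAoe replicate 2 or 3, or any ePRBoe library (adjusted p = 0.0521 to 0.274), and with any library left out its change lay between -3.62 and -2.59.

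Trpm6 (chr19:18749983-18892511), a channel fused to a kinase through which epithelia take up magnesium, followed the same order. It stood at 36.8, 91.7 and 57.8 FPKM in Wnt7acre, at 6.79, 1.86 and 5.40 in ePRAoe, and 7.45, 4.11 and 4.26 in the ePRBoe libraries, again with no overlap between the controls and either genotype. Its change in ePRAoe was -3.50 (SE 0.38, adjusted p = 0.00243), the smallest adjusted p among the 82 genes, with -4.36, -3.86 and -2.28 within the runs. In ePRBoe it fell by 2.84 (SE 0.47, adjusted p = 0.0136), a call lost only without Wnt7acre replicate 3 (adjusted p = 0.175, change -1.97). Trpv6 and Trpm6 together took 4.74%, 15.8% and 9.74% of the FPKM of the 170 genes in the 3 controls, 0.386% to 0.938% in ePRAoe, and from 0.508% to 1.16% in ePRBoe. The control with the highest Pgr, replicate 1, had the lowest Trpv6 and Trpm6, and replicate 2, with the lowest Pgr, had the highest, which describes 3 libraries and was not tested. Each of these 3 controls came from a different sequencing run, so this order cannot be told apart from a difference between runs.

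Trpv5, the close relative of Trpv6 and chosen here after its values were seen, was low throughout at 0.409, 1.46 and 0.439 FPKM in Wnt7acre, 0.058, 0 and 0.117 in ePRAoe and 0.263, 0.058 and 0.38 in ePRBoe, and did not pass the filter. With no filter limma gave it a change of -0.69 in ePRAoe (adjusted p = 0.0453). Trpm7, the widely expressed relative of Trpm6 and likewise chosen after its values were seen, had means of 16.2, 21.1 and 14.9 FPKM in the order Wnt7acre, ePRAoe and ePRBoe, with a change of 0.37 in ePRAoe (adjusted p = 0.136) and -0.09 in ePRBoe (adjusted p = 0.803).

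The pump that moves calcium out at the other side of the cell also fell. Atp2b1 (chr10:98914406-99026143), a plasma membrane calcium pump, stood at 42.2, 65.8 and 52.4 FPKM in Wnt7acre, at 25.9, 29.8 and 29.2 in ePRAoe, and 29, 25.7 and 27.1 in the ePRBoe libraries. The overexpressing libraries were close to each other and all below the controls. Its level fell by 0.87 in ePRAoe (SE 0.13, adjusted p = 0.00622), with -0.80, -1.14 and -0.68 within the runs, and fell by 0.96 in ePRBoe (SE 0.16, adjusted p = 0.0144). In ePRBoe the gene no longer passed without Wnt7acre replicate 3, without ePRAoe replicate 2, or without ePRBoe replicate 2 or 3 (adjusted p = 0.0532 to 0.102).

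Other calcium pumps did not follow Atp2b1. Atp2b4, a pump of the same family, lay between 0.642 and 0.834 FPKM in the controls, between 1.31 and 2.15 in ePRAoe and between 2.45 and 3.25 in ePRBoe, with no overlap between any of the groups. It rose by 1.20 in ePRBoe (SE 0.23, adjusted p = 0.0221), while its change of 0.65 in ePRAoe missed the threshold (adjusted p = 0.0555). In ePRAoe it passed with median-of-ratios factors, quantile normalization, a pseudocount of 0.25, no run term or no variance trend (adjusted p = 0.0353 to 0.0494). Its ePRBoe call was lost without Wnt7acre replicate 3, without ePRAoe replicate 2 or any ePRBoe library (adjusted p = 0.0559 to 0.0847). Atp2b2, named after its values were seen, had 17.3, 3.13 and 26 FPKM in Wnt7acre and overlapped with both genotypes (ePRAoe change 1.23, adjusted p = 0.0606; ePRBoe 0.45, adjusted p = 0.584).

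Atp2c2, a pump that loads calcium and manganese into the Golgi of secretory cells, stood at 6.91, 2.24 and 6.61 FPKM in Wnt7acre, at 14, 4.72 and 3.30 in ePRAoe, and 31.9, 33.7 and 12.8 in the ePRBoe libraries. Each ePRBoe library was above each control, and the ePRAoe libraries straddled the controls. It rose by 2.08 in ePRBoe (SE 0.48, adjusted p = 0.0378), a 4.22-fold difference, and its difference in ePRAoe was 0.31 (adjusted p = 0.637). The rise was no longer called without Wnt7acre replicate 2 or 3, without ePRAoe replicate 2 or 3, or without ePRBoe replicate 1 or 2 (adjusted p = 0.0707 to 0.137), nor with only the 2 genotypes compared in the fit (adjusted p = 0.116). Atp2a2, which refills the endoplasmic reticulum, held means of 66.2 ± 10.5, 69 ± 15.4 and 58.9 ± 6.41 FPKM (SD, n = 3 each) in the order Wnt7acre, ePRAoe and ePRBoe, within the spread of the replicates.

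Of 17 tested genes of calcium stores and buffers, 3 rose (17.6%, against 7.2% of all genes) and 3 fell (17.6%, against 8.98%) in ePRAoe, and 1 rose in ePRBoe (5.88%, against 6.41%). S100g, the calbindin that ferries calcium through absorbing cells, stood at 2068, 2854 and 2459 FPKM in Wnt7acre, at 980, 763 and 839 in ePRAoe, and 1458, 1036 and 1392 in the ePRBoe libraries. The ePRAoe difference was -1.51 (SE 0.26, adjusted p = 0.00954), and in ePRBoe, where all libraries also lay below the controls, its change of -0.85 missed the threshold (adjusted p = 0.142). Stim1, the sensor that opens Orai channels, rose by 0.96 in ePRAoe (adjusted p = 0.00676), and Mcu, the mitochondrial calcium uniporter, rose by 1.09 in ePRAoe (adjusted p = 0.00758) and by 1.20 in ePRBoe (adjusted p = 0.0176). Calb1, another calbindin, named after its values were seen, moved opposite to S100g: it had 245, 30 and 188 FPKM in Wnt7acre against 314, 558 and 292 in ePRAoe and rose by 1.72 (adjusted p = 0.0412). The Stim1 rise held with any library left out. The S100g fall was lost without Wnt7acre replicate 2 or without ePRAoe replicate 2 or 3 (adjusted p = 0.0518 to 0.0593), the Mcu rise in ePRAoe without Wnt7acre replicate 3 or without ePRAoe replicate 2 (0.0511 and 0.0527) and in ePRBoe without Wnt7acre replicate 3, without ePRAoe replicate 2, or without ePRBoe replicate 2 (0.0516 to 0.174), and the Calb1 rise without Wnt7acre or ePRAoe replicate 2 or 3 or any ePRBoe library (0.0633 to 0.136).

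**Figure D4:**
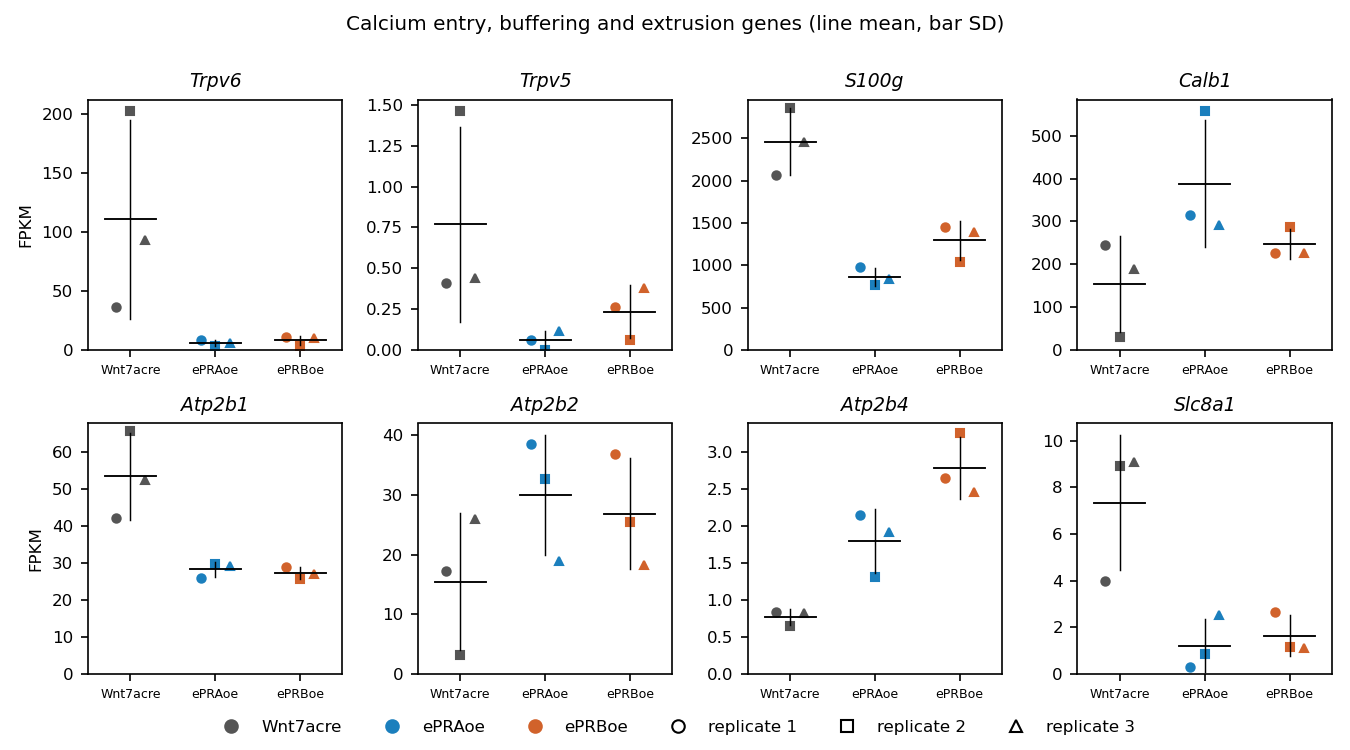
FPKM of 8 genes of calcium entry (Trpv6, Trpv5), buffering (S100g, Calb1) and extrusion (Atp2b1, Atp2b2, Atp2b4, Slc8a1) in each library, with a line for the mean and a bar for the SD of 3 libraries per genotype. Trpv6, S100g, Atp2b1 and Slc8a1 are higher in all controls than in all overexpressing libraries, while Atp2b4 is lower in all controls, at 0.642 to 0.834 FPKM.

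Calcium release and store-operated channels showed no gene past the threshold. Itpr2, the main inositol trisphosphate receptor here, stood at 162, 126 and 116 FPKM in Wnt7acre, 171, 187 and 152 in ePRAoe and 133, 121 and 116 in ePRBoe, with a change of 0.35 in ePRAoe (adjusted p = 0.172) and -0.09 in ePRBoe (adjusted p = 0.821). Itpr3 had means of 15.8 ± 6.13, 8.82 ± 0.526 and 9.95 ± 0.473 FPKM (SD, n = 3 each), with changes of -0.71 (adjusted p = 0.0562) and -0.47 (adjusted p = 0.298). Orai3 and Orai1, plasma membrane pores gated by store depletion, averaged 21 and 9.68 FPKM in Wnt7acre, with changes in ePRAoe of -0.05 (adjusted p = 0.886) and -0.81 (adjusted p = 0.0698) and in ePRBoe of 0.42 (adjusted p = 0.334) and -0.20 (adjusted p = 0.733). Trpc4ap, at 21.7 to 26.9 FPKM in every library, was among the steadiest, with changes of -0.13 (adjusted p = 0.491) and 0.08 (adjusted p = 0.778).

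Trpm3, a channel gated by heat and by the steroid pregnenolone sulfate, whose promoter match is printed above, averaged 1.56 ± 1.06 FPKM in the controls, 3.99 ± 0.674 in ePRAoe and 3.08 ± 0.872 in ePRBoe (SD, n = 3 each). It rose by 1.06 in ePRAoe (SE 0.28, adjusted p = 0.041), and its difference in ePRBoe was 0.40 (adjusted p = 0.511). The call was lost without Wnt7acre replicate 2 or 3, without ePRAoe replicate 2 or 3 or any ePRBoe library (adjusted p = 0.0546 to 0.165).

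Among chloride channel proteins the Clic family went in both directions. Clic proteins exist in soluble and membrane forms, and their role as channels in living cells is debated. Clic4 (chr4:135213969-135272814) stood at 21.5, 25.7 and 18 FPKM in Wnt7acre, at 6.81, 4.21 and 11.3 in ePRAoe, and 11.1, 12.3 and 8.59 in the ePRBoe libraries. All overexpressing libraries were below the controls, yet the test was passed in ePRAoe only: Clic4 fell by 1.51 there (SE 0.19, adjusted p = 0.00377; -1.87, -1.12 and -1.53 within the runs), and its difference in ePRBoe was -0.54 (adjusted p = 0.197), with an ePRBoe to ePRAoe difference of 0.97 that did not pass (adjusted p = 0.111).

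Clic1, the most abundant chloride channel protein, stood at 155, 263 and 181 FPKM in Wnt7acre, at 126, 85.5 and 85.1 in ePRAoe, and 149, 134 and 124 in the ePRBoe libraries. All overexpressing libraries were lower than the controls, ePRBoe replicate 1 by a small margin. In ePRAoe the change was -0.99 (SE 0.24, adjusted p = 0.0287), and in ePRBoe it was -0.38 (adjusted p = 0.464). The fall was not called without Wnt7acre replicate 2 or 3, without ePRAoe replicate 2 or 3, or without ePRBoe replicate 2 (adjusted p = 0.0535 to 0.123).

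Clic3 (chr2:25456838-25458776) went the other way, and of the 3 matches printed above its own lies nearest to a start. It stood at 4.47, 3.62 and 4.19 FPKM in Wnt7acre, at 11.9, 20.4 and 8.94 in ePRAoe, and 23.4, 20.1 and 15.1 in the ePRBoe libraries. The controls were tight and every overexpressing library was above them. Clic3 rose by 1.46 in ePRAoe (SE 0.23, adjusted p = 0.00696; 2.04, 1.11 and 1.24 within the runs) and by 1.67 in ePRBoe (SE 0.28, adjusted p = 0.0141). In ePRBoe the gene no longer passed without Wnt7acre replicate 3 (adjusted p = 0.167) or ePRBoe replicate 2 (adjusted p = 0.0518).

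Clcn5 (chrX:7153810-7319358), an endosomal exchanger of chloride and protons, rose in ePRAoe and is the other stable rise with a promoter match. It stood at 13.6, 11.8 and 14.5 FPKM in Wnt7acre, at 30.6, 42.1 and 27.3 in ePRAoe, and 21.1, 28.3 and 24 in the ePRBoe libraries. The controls lay below all other libraries, and ePRBoe overlapped with ePRAoe. The rise in ePRAoe was 1.24 (SE 0.15, adjusted p = 0.00355; 1.47, 1.14 and 1.11 within the runs), and the change in ePRBoe was 0.59 (adjusted p = 0.0926). None of the other 5 Clcn genes passed the test, and Clcn3, a relative in the same compartments, averaged 17.4 ± 2.52, 16.5 ± 1.7 and 13 ± 2.12 FPKM (SD, n = 3 each) in Wnt7acre, ePRAoe and ePRBoe.

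The volume-regulated anion channel, which lets chloride and small organic molecules out of swollen cells, is built from the obligatory subunit Lrrc8a with partners Lrrc8b to Lrrc8e. Lrrc8b (chr5:105415775-105490074) stood at 16.3, 27.8 and 19.9 FPKM in Wnt7acre, at 4.15, 1.65 and 8.08 in ePRAoe, and 6.63, 5.60 and 6.14 in the ePRBoe libraries, with no overlap with the controls. Its change in ePRAoe was -2.13 (SE 0.25, adjusted p = 0.00333), a 4.38-fold difference, with -2.98, -1.66 and -1.75 within the runs. In ePRBoe the change of -1.13 missed the threshold (SE 0.31, adjusted p = 0.0656). That fall was called with median-of-ratios factors (adjusted p = 0.0454), quantile normalization (0.0323), no run term (0.0237) or only the genotypes compared (0.014). It was also called with a replicate block (0.04) and without Wnt7acre replicate 1 (0.0497) or ePRAoe replicate 1 or 2 (0.0491 and 0.02).

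Lrrc8d, encoded nearby on chromosome 5, stood at 20.4, 25.7 and 19.3 FPKM in Wnt7acre, at 18.5, 6.90 and 9.43 in ePRAoe, and 12, 11.1 and 12.4 in the ePRBoe libraries, with ePRAoe replicate 1 close to the controls. The ePRAoe difference was -0.95 (SE 0.24, adjusted p = 0.0356), and in ePRBoe it was -0.46 (adjusted p = 0.379). That call was lost without Wnt7acre replicate 2 or 3, without ePRAoe replicate 2 or 3 or any ePRBoe library (adjusted p = 0.0583 to 0.173). Lrrc8a averaged 40.6 ± 2.74 FPKM in Wnt7acre, 30.2 ± 8.07 in ePRAoe and 26 ± 3.62 in ePRBoe (SD, n = 3 each), and its changes of -0.44 (adjusted p = 0.142) and -0.55 (adjusted p = 0.171) did not pass. Lrrc8a shares 2853 exonic bases, 66.2% of its exons, with Gm28035 on the same strand. Gm28035 is not among the deposited symbols, and how reads in the shared bases were assigned is not known.

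The anoctamins are calcium-activated chloride channels and lipid scramblases. Ano10 stood at 9.71, 9.83 and 7.37 FPKM in Wnt7acre, at 6.42, 5.67 and 4.38 in ePRAoe, and 8.82, 8.37 and 7.71 in the ePRBoe libraries. It was below the controls in all ePRAoe libraries and within their range in ePRBoe. Ano10 fell by 0.62 in ePRAoe (SE 0.17, adjusted p = 0.0441), but the call was lost when any 1 of the 9 libraries was left out (adjusted p = 0.0593 to 0.175). Ano6, the scramblase of the family, averaged 17.2 ± 1.37, 17.6 ± 3.37 and 18.7 ± 2.12 FPKM (SD, n = 3 each) in Wnt7acre, ePRAoe and ePRBoe. The Clca regulators of these channels were low, except for Clca1 in Wnt7acre replicate 1 at 17.3 FPKM, against 1.32 and 0.026 in the other controls and at most 0.544 in any overexpressing library, and Clca3a1 did not exceed 1.25 FPKM. Neither passed the filter.

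Of 18 tested partners of sodium and chloride transport, 0 rose and 5 fell in ePRAoe (27.8%, against 8.98% of all genes), while in ePRBoe 1 rose (5.56%, against 6.41%) and 3 fell (16.7%, against 2.48%). These counts include Scnn1g and Slc24a3, which passed the filter only through the group where each is high (Wnt7acre and ePRBoe), so the filter favoured a difference and their values are a description. Scnn1g, which encodes the gamma subunit of that sodium channel, averaged 6.31 ± 4.16 FPKM (SD, n = 3) over the controls, was listed at 0 in all ePRAoe libraries and at 0.101, 0 and 0.228 in ePRBoe. Scnn1b fell by 1.64 in ePRAoe (adjusted p = 0.0103), and Slc8a1, the sodium-calcium exchanger, fell by 1.97 in ePRAoe (adjusted p = 0.00513) and by 1.74 in ePRBoe (adjusted p = 0.0227). Slc24a3, an exchanger of sodium, calcium and potassium, stood at 1.4 to 1.59 FPKM in ePRBoe and at most at 0.56 in the other libraries. Slc12a2, the basal sodium-potassium-chloride cotransporter, named after its values were seen, fell in ePRBoe by 1.27 (adjusted p = 0.0476) from 170, 140 and 169 FPKM to 89.7, 86.4 and 78.6. The ePRAoe fall of Slc8a1 held with any library left out, and that of Scnn1b was lost without Wnt7acre or ePRAoe replicate 2 or 3 (adjusted p = 0.0636 to 0.0693). In ePRBoe the calls of Slc8a1 and Slc12a2 were lost without Wnt7acre replicate 3 (adjusted p = 0.246 and 0.0881). That of Slc8a1 was also lost without ePRAoe replicate 2, or without ePRBoe replicate 2 or 3 (adjusted p = 0.0523 to 0.0711), and that of Slc12a2 without Wnt7acre replicate 2, without ePRAoe replicate 2 or 3 or any ePRBoe library (adjusted p = 0.0628 to 0.146).

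The aquaporin level rested on a single gene. Aqp11, an aquaporin of internal membranes, stood at 84.2, 50 and 65.4 FPKM in Wnt7acre, at 127, 110 and 69.2 in ePRAoe, and 110, 85.3 and 79.4 in the ePRBoe libraries. The groups overlapped, since ePRAoe replicate 3 and ePRBoe replicate 3 were below Wnt7acre replicate 1. Aqp11 rose by 0.59 in ePRAoe in the fit that compares within runs (SE 0.16, adjusted p = 0.0399; 0.74, 0.46 and 0.59 within the runs), and its difference in ePRBoe was 0.39 (adjusted p = 0.246). The call was lost without a term for the run (adjusted p = 0.169), and without any library other than ePRBoe replicate 1 (adjusted p = 0.0562 to 0.16).

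Aqp5 and Aqp8, 2 water channels known from uterine epithelium, were near the floor of the data. Aqp5 stood at 2.35, 0.49 and 0.245 FPKM in Wnt7acre, at 0.049, 0.196 and 0.245 in ePRAoe, and 1.13, 0.049 and 0.392 in the ePRBoe libraries, and was not tested. Aqp8 stood at 0.307, 0.818 and 1.02 FPKM in Wnt7acre, at 0.051, 0 and 0.102 in ePRAoe, and 1.18, 1.18 and 0.205 in the ePRBoe libraries. Its ePRAoe libraries lay below all others, but the change of -0.68 did not pass (SE 0.29, adjusted p = 0.153), and in ePRBoe it was -0.01 (adjusted p = 0.987). Aqp1, the aquaporin of endothelium and red cells, exceeded 1.41 FPKM only in ePRBoe replicate 2, at 7.68 FPKM, the library with the highest endothelial (63 FPKM) and smooth muscle (158 FPKM) marker sums.

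The sodium-potassium pump, which sets the sodium and potassium gradients of every cell, had no gene past the threshold. Atp1b3, a subunit that guides the pump to the membrane, averaged 66.8 ± 7.77, 59.4 ± 10.2 and 61.3 ± 5.9 FPKM (SD, n = 3 each). Among 19 tested regulators of pumps and channels 4 rose (21.1%, against 7.2% of all genes) and 1 fell (5.26%, against 8.98%) in ePRAoe, and 4 rose in ePRBoe (21.1%, against 6.41%). The kinases Oxsr1 and Wnk4, which act on chloride cotransporters, rose in ePRAoe by 1.07 (adjusted p = 0.00366) and 1.78 (adjusted p = 0.0044) and in ePRBoe by 0.90 (adjusted p = 0.018) and 1.60 (adjusted p = 0.0183). Of the Fxyd proteins, which modulate the pump, Fxyd3 fell by 0.96 in ePRAoe (adjusted p = 0.00898), while in ePRBoe Fxyd1 rose by 2.27 (adjusted p = 0.0104) and Fxyd5 by 1.22 (adjusted p = 0.0324). Fxyd4, the most abundant of them and named after its values were seen, rose in ePRAoe by 1.61 (adjusted p = 0.0115), from 583, 154 and 598 FPKM in the controls to 1137, 1634 and 824. The ePRAoe calls of Oxsr1, Wnk4 and Fxyd3 and the ePRBoe call of Fxyd1 held with any library left out. The ePRBoe calls of Oxsr1 and Wnk4 were lost without Wnt7acre replicate 3 (adjusted p = 0.157 and 0.186), ePRAoe replicate 2 (0.0596 and 0.0609) or ePRBoe replicate 2 (0.062 and 0.0617), and also without ePRBoe replicate 3 for Oxsr1 (0.0617) and ePRBoe replicate 1 for Wnk4 (0.0505). The Fxyd4 rise was lost without Wnt7acre replicate 2 or 3 or ePRAoe replicate 2 (adjusted p = 0.0511 to 0.0558), and the Fxyd5 rise without Wnt7acre replicate 3, ePRAoe replicate 2, or ePRBoe replicate 1 or 2 (adjusted p = 0.0891 to 0.214).

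Potassium channels of the K2P family, which carry the resting leak current, held Kcnk1, among the most abundant genes, and Kcnk4, which was very low in the controls. Kcnk1 (chr8:125995170-126030685) stood at 133, 196 and 175 FPKM in Wnt7acre, at 112, 128 and 126 in ePRAoe, and 111, 108 and 104 in the ePRBoe libraries. All controls were above all other libraries. Kcnk1 fell by 0.69 in ePRBoe (SE 0.16, adjusted p = 0.0399), and its change of -0.44 in ePRAoe narrowly missed the threshold (adjusted p = 0.0585). In ePRBoe the gene no longer passed without Wnt7acre replicate 2 or 3, without ePRAoe replicate 2 or 3 or any ePRBoe library (adjusted p = 0.0514 to 0.2).

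Kcnk4 (chr19:6923966-6934515), a mechanosensitive leak channel, stood at 0.172, 0.043 and 0.086 FPKM in Wnt7acre, at 0.906, 4.31 and 4.18 in ePRAoe, and 10.3, 8.93 and 7.29 in the ePRBoe libraries, with no overlap between any of the groups. It rose by 1.77 in ePRAoe (SE 0.33, adjusted p = 0.0122) and by 2.90 in ePRBoe (SE 0.40, adjusted p = 0.00885), the largest rise among the 82 genes. No control reached 1 FPKM, so the filter favoured a rise of this gene. In ePRBoe the gene no longer passed without Wnt7acre replicate 3 (adjusted p = 0.111), and the ePRAoe call without Wnt7acre replicate 2 or 3 or without ePRAoe replicate 2 or 3 (adjusted p = 0.0738 to 0.0786). Kcnk4 shares 587 exonic bases, 13.1% of its exons, with Catsperz on the same strand, so reads there cannot be assigned to either gene. Catsperz, a sperm channel component by name, stood at 10.8, 1.26 and 5.84 FPKM in Wnt7acre, at 21.9, 96.1 and 82.9 in ePRAoe, and 115, 77.1 and 135 in the ePRBoe libraries, above the Kcnk4 level in each library. It rose by 3.33 in ePRAoe (adjusted p = 0.0166) and by 3.72 in ePRBoe (adjusted p = 0.0334). The ePRAoe call of Catsperz was lost without Wnt7acre or ePRAoe replicate 2 or 3 (adjusted p = 0.0779 to 0.0973). Its ePRBoe call was lost without Wnt7acre replicate 3, ePRAoe replicate 2 or any ePRBoe library (adjusted p = 0.07 to 0.267). How much of the Kcnk4 value comes from Catsperz was not tested.

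Kcnk5, a K2P channel sensitive to alkaline pH, stood at 7.64, 2.71 and 6.71 FPKM in Wnt7acre, at 6.38, 36.3 and 27.9 in ePRAoe, and 12.2, 13.5 and 16.2 in the ePRBoe libraries. ePRAoe replicates 2 and 3 were high while replicate 1 was among the controls, and the change of 1.67 did not pass (SE 0.52, adjusted p = 0.0663; 2.28, 2.96 and -0.23 within the runs). In ePRBoe the change was 0.64 (adjusted p = 0.575). Without Wnt7acre or ePRAoe replicate 1 Kcnk5 passed in ePRAoe (2.62, adjusted p = 0.00142 and 0.00141) and in ePRBoe (1.12, adjusted p = 0.0263 each).

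Voltage-gated potassium channels and their subunits were the largest group, with 39 genes, of which 15 were tested. Kcnq1, which recycles potassium across epithelia, stood at 7.10, 15.3 and 10.1 FPKM in Wnt7acre, at 5.10, 4.49 and 7.08 in ePRAoe, and 6.30, 5.27 and 4.52 in the ePRBoe libraries, with the highest ePRAoe value just under the lowest control. In ePRAoe the change was -0.81 (SE 0.19, adjusted p = 0.0253), and in ePRBoe it was -0.71 (adjusted p = 0.098). In ePRAoe the gene no longer passed without Wnt7acre replicate 2 or 3, without ePRAoe replicate 2 or 3, or without ePRBoe replicate 2 (adjusted p = 0.0513 to 0.124), and without a term for the run (adjusted p = 0.0769). Kcne3, the subunit that holds Kcnq1 open in epithelia, moved the other way in its means: 17.8, 3.94 and 20.2 FPKM in Wnt7acre, 20.9, 25.8 and 31.9 in ePRAoe and 34.9, 68.1 and 55.9 in ePRBoe. Its libraries did not overlap between the 3 genotypes, but Wnt7acre replicate 2 was far below the other controls and neither change passed (1.10 with adjusted p = 0.161, and 1.67 with adjusted p = 0.123).

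Kcnc4, a fast delayed rectifier, stood at 0.983, 0.429 and 1.24 FPKM in Wnt7acre, at 2.52, 11 and 8.50 in ePRAoe, and 8.67, 3.50 and 17.5 in the ePRBoe libraries. All overexpressing libraries were above the controls, with a wide spread. It rose by 1.99 in ePRAoe (SE 0.54, adjusted p = 0.0442), while a change of similar size in ePRBoe, 1.84, did not pass (SE 0.66, adjusted p = 0.131). That rise was lost without Wnt7acre replicate 2 or 3, without ePRAoe replicate 2 or 3, or without ePRBoe replicate 1 (adjusted p = 0.0696 to 0.203). The low gene Kcnc2, a relative of Kcnc4, stood at 1.25, 4.25 and 4.55 FPKM in the controls, at 0.743 to 0.963 in ePRAoe and at 0.573 to 0.865 in ePRBoe, and only its controls let it pass the filter. With that selection its change was -1.13 in ePRAoe (adjusted p = 0.0398) and -1.46 in ePRBoe (adjusted p = 0.0483). Kcnab3, an accessory subunit, rose in ePRAoe by 1.32 (adjusted p = 0.0226), from a range of 0.15 to 0.33 FPKM to one of 0.54 to 4.08. Without Wnt7acre replicate 2 or 3 or without ePRAoe replicate 2 or 3 these ePRAoe calls were lost as well (adjusted p = 0.176 to 0.19 for Kcnc2 and 0.115 to 0.121 for Kcnab3). The ePRAoe call of Kcnc2 was also lost when any 1 ePRBoe library was left out (adjusted p = 0.0607 to 0.0661), through the estimated spread and not the change. The ePRBoe call of Kcnc2 was lost without Wnt7acre replicate 2 or 3, without ePRAoe replicate 2 or 3 or any ePRBoe library (0.0748 to 0.406).

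Inward rectifier, calcium-activated and sodium-activated potassium channels were scarce. Of 9 inward rectifiers 2 were tested, Kcnj13 and Kcnj8, with means from 0.189 to 1.63 FPKM, and neither passed the test. Kcnj13 shares 623 exonic bases, 49.1% of its exons, with Gigyf2 on the opposite strand, which stood at 19.4 to 30.3 FPKM. The strand setting is not known, and how much of the Kcnj13 value comes from Gigyf2 was not tested. Kcnj1, the rectifier that secretes potassium in the kidney and named after its values were seen, stood at 0.047, 3.23 and 1.75 FPKM in Wnt7acre, was listed at 0 in all ePRAoe libraries and did not exceed 0.047 in ePRBoe; it did not pass the filter. Of the 7 calcium- and sodium-activated channels none was tested. Kcnt2 stood at 0.327 to 0.922 FPKM over the 9 libraries, and Kcnn4, an epithelial and immune cell channel, at 0.672 to 1.38 in Wnt7acre and 0.037 to 0.485 elsewhere, with a change of -0.67 in ePRAoe (adjusted p = 0.0233) where no filter was applied.

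Voltage-gated calcium and sodium channel subunits, typical of excitable cells, were low, and those that changed did so in ePRBoe. Cacng7, an accessory subunit, stood at 1.72, 1.96 and 2.30 FPKM in Wnt7acre, at 2.89, 1.31 and 4.85 in ePRAoe, and 7.80, 6.80 and 8.62 in the ePRBoe libraries. The ePRBoe libraries were above all others, and the ePRAoe libraries spanned the controls. It rose by 1.82 in ePRBoe (SE 0.34, adjusted p = 0.0194), and its difference in ePRAoe was 0.33 (adjusted p = 0.463). The call held without any 1 control or ePRAoe library but not without ePRBoe replicate 1, 2 or 3 (adjusted p = 0.0538, 0.0527 and 0.062).

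Cacna2d1, a subunit that carries calcium channels to the membrane, rose by 1.01 in ePRBoe (SE 0.25, adjusted p = 0.0475), from a range of 0.254 to 0.538 FPKM in the controls to one of 1.41 to 2.02, and this call was lost without any 1 of the 9 libraries (adjusted p = 0.0546 to 0.144). Scn4b, a beta subunit of sodium channels, rose by 1.43 in ePRBoe (SE 0.25, adjusted p = 0.0164), from a range of 0.394 to 0.537 FPKM to one of 2.40 to 2.85, and its call was lost without Wnt7acre replicate 3, without ePRAoe replicate 2, or without ePRBoe replicate 1 or 2 (adjusted p = 0.0541 to 0.0624). Scn2b, another beta subunit, had a difference of 0.95 in ePRBoe (adjusted p = 0.0608). These rises stood beside higher stromal, smooth muscle, endothelial and immune marker sums in the same 3 libraries, whose part was not tested. Cacnb3, the most abundant of the voltage-gated calcium channel subunits, averaged 8.5 ± 2.79 FPKM in Wnt7acre, 4.88 ± 1.45 in ePRAoe and 6.77 ± 0.979 in ePRBoe (SD, n = 3 each), and no change passed (adjusted p = 0.0774 and 0.973).

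Of the ATP-gated channels, P2rx4 stood at 20.6, 28.1 and 19.8 FPKM in Wnt7acre, at 16.3, 14 and 14.2 in ePRAoe, and 19.3, 20.4 and 18.6 in the ePRBoe libraries. P2rx4 is the main epithelial receptor channel of this family here, lower in all ePRAoe libraries than in all others. Its change in ePRAoe was -0.58 (SE 0.15, adjusted p = 0.0377), and in ePRBoe it was -0.08 (adjusted p = 0.832). The fall was not called without Wnt7acre replicate 2 or 3, without ePRAoe replicate 2 or 3 or any ePRBoe library (adjusted p = 0.0669 to 0.142).

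P2rx6 (chr16:17561885-17577800), a subunit that conducts mainly together with others of the family, stood at 0.259, 0.389 and 0.454 FPKM in Wnt7acre, at 2.5, 9.37 and 4.12 in ePRAoe, and 4.15, 10.2 and 5.96 in the ePRBoe libraries. The controls were all under 0.5 FPKM and every other library was at least 2.5. P2rx6 rose by 2.06 in ePRAoe (SE 0.35, adjusted p = 0.00898; 2.83, 1.88 and 1.47 within the runs) and by 1.96 in ePRBoe (SE 0.43, adjusted p = 0.0318). Calls were lost in ePRAoe without Wnt7acre replicate 3 (adjusted p = 0.0563) or ePRAoe replicate 2 (adjusted p = 0.0586), and in ePRBoe without Wnt7acre replicate 2 or 3, without ePRAoe replicate 2 or 3, or without ePRBoe replicate 2 or 3 (adjusted p = 0.0517 to 0.328). P2rx6 shares 554 exonic bases, 13.9% of its exons, with Slc7a4 on the opposite strand, and whether the counting used strand is not given in the sources used here. Slc7a4 rose by 1.65 in ePRAoe (adjusted p = 0.0076) from a range of 2.03 to 2.69 FPKM to one of 4.32 to 17 (a call lost without Wnt7acre replicate 2, adjusted p = 0.0504, or ePRAoe replicate 3, 0.0518). If counting ignored strand, the 2 genes cannot be told apart in the shared stretch, and how much of the P2rx6 value comes from Slc7a4 was not tested.

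**Figure D5:**
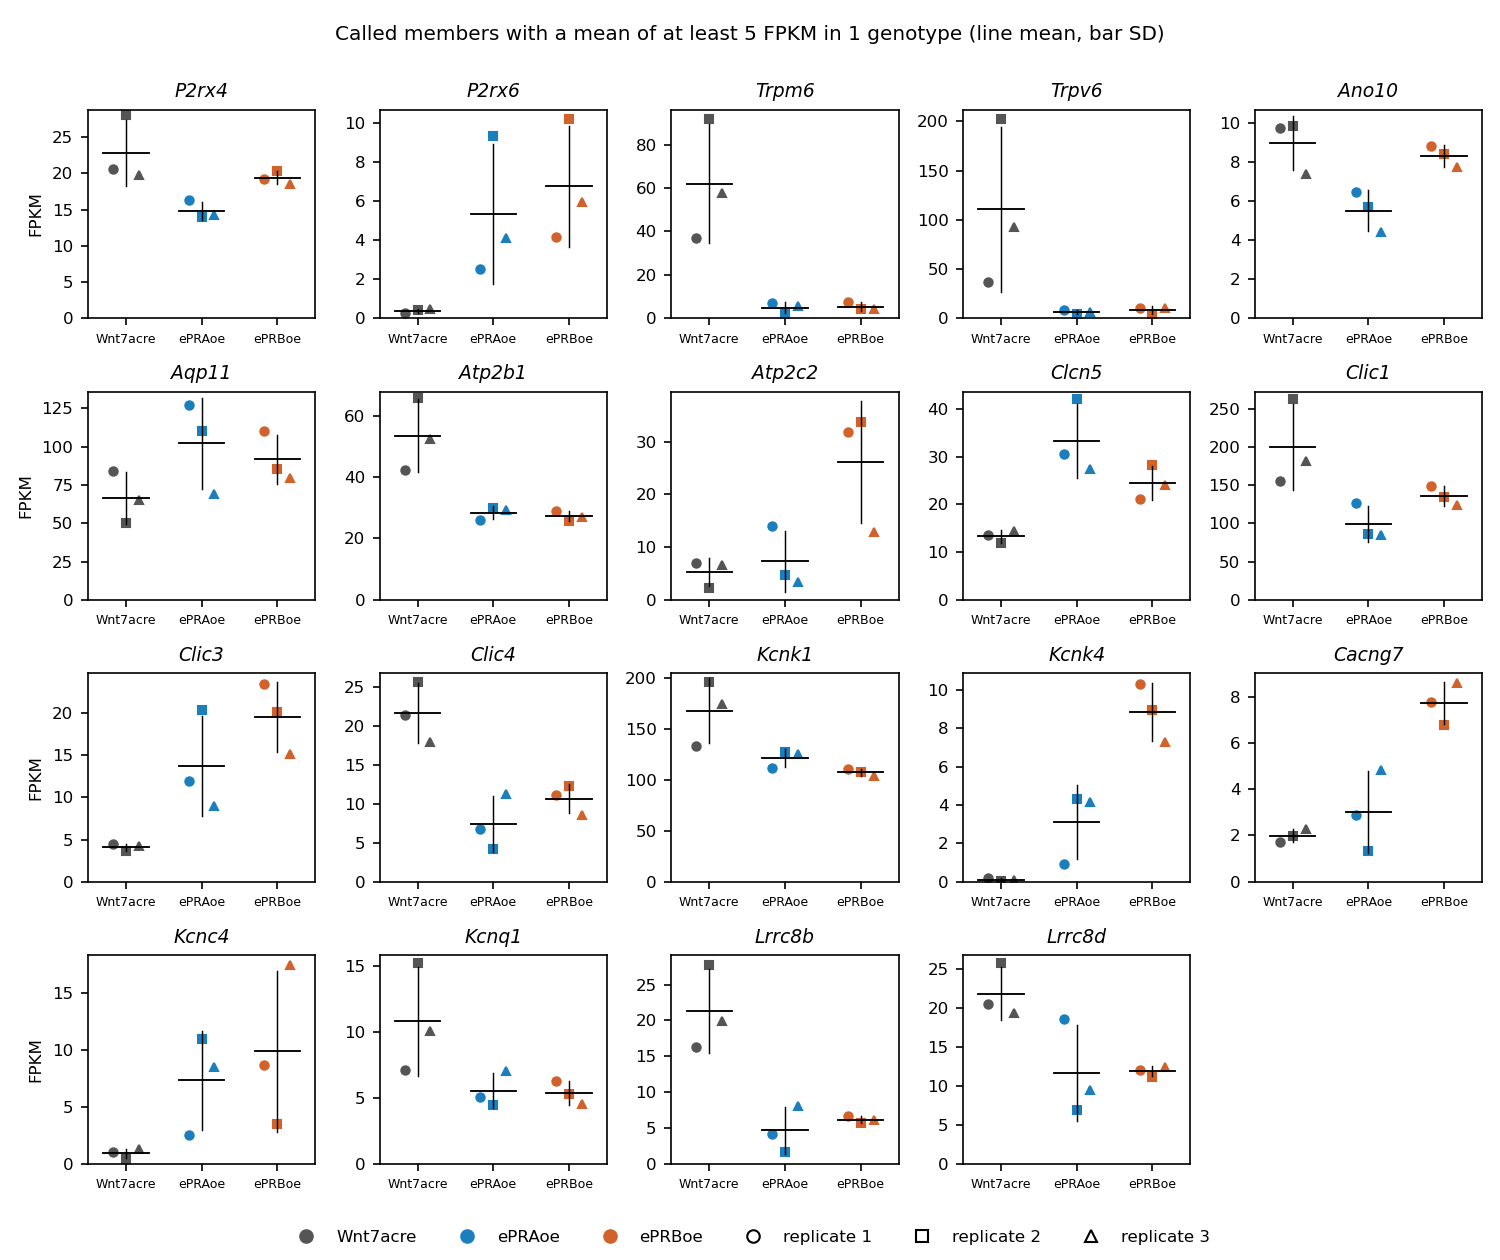
FPKM in each library for the 19 genes that changed in ePRAoe or ePRBoe and had a mean of at least 5 FPKM in some genotype, with a line for the mean and a bar for the SD of 3 libraries per genotype, on linear axes from 0. Trpv6 and Trpm6 are high only in the controls, P2rx6, Clic3 and Clcn5 are low only in the controls, and Cacng7 and Atp2c2 are high in ePRBoe.

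No mechanically activated channel passed the threshold. Piezo1 averaged 4.79 ± 1.72, 5.69 ± 1.99 and 6.17 ± 1.3 FPKM (SD, n = 3 each) in Wnt7acre, ePRAoe and ePRBoe. Piezo2 lay between 0.475 and 0.936 FPKM in the controls, between 1.43 and 1.44 in ePRAoe and between 1.73 and 1.93 in ePRBoe, without overlap, and its changes of 0.48 (adjusted p = 0.109) and 0.66 (adjusted p = 0.105) did not pass. Hcn3, the only pacemaker channel in the table, reached at most 0.303 FPKM.

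Between the overexpressing genotypes, which asks whether the isoforms differed in their effect on these genes, limma called 0 of the 82, against 0.324% of all genes tested. Of the 82, 25 had an unadjusted p under 0.05 and the smallest adjusted p was 0.102, for Cacng7, which was higher in ePRBoe by 1.49 (SE 0.34). The median difference was 0.27, beside 0.15 over all genes, and with median-of-ratios factors that of all genes moved to -0.019 and that of the 82 to 0.08. A fit of these genotypes alone called 4 genes: Cacng7 (1.92, adjusted p = 0.0273) and Lrrc8b (1.42, adjusted p = 0.0382) higher in ePRBoe, and Kcnk5 (-1.33, adjusted p = 0.0391) and Kcnab3 (-1.43, adjusted p = 0.0465) lower. Leaving out Wnt7acre replicate 1 or ePRAoe replicate 1, the only libraries of run 3, called 3 genes, Kcnk5, Kcnab3 and Lrrc8d. Kcnh1, named after its values were seen, showed the widest gap in level at low expression, with 0.032 to 0.042 FPKM in ePRAoe and 1.62 to 4.18 in ePRBoe (difference 1.48, adjusted p = 0.122). Of the regulators, Fxyd5 was higher in ePRBoe than in ePRAoe by 1.91 (adjusted p = 0.0406), at 29.8, 30.8 and 21.5 FPKM against 8.9, 6.52 and 14.1, a call lost without Wnt7acre replicate 2 or 3, without ePRAoe replicate 2 or 3 or any ePRBoe library (adjusted p = 0.0507 to 0.504), with every other scaling tried (0.0694 to 0.0828), with no filter (0.0563), no run term (0.098) or no variance trend (0.0538). In this comparison 5 of 8 immune markers were also higher in ePRBoe, and their part in the Fxyd5 difference was not tested.

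Connexins, which join cells by gap junctions, and further channels outside the 170 genes were also counted: of 24 tested, 3 rose (12.5%, against 7.2% of all genes) and 2 fell (8.33%, against 8.98%) in ePRAoe, and 3 rose in ePRBoe (12.5%, against 6.41%). Gjb1, an epithelial connexin, fell by 2.16 in ePRAoe (adjusted p = 0.00526), from 3.32, 15.2 and 8.11 FPKM to 0.925, 0.588 and 1.34, and was at 3.70, 5.13 and 5.08 in ePRBoe (adjusted p = 0.437). Gja1, the main connexin of the uterine stroma, rose by 1.34 in ePRAoe (adjusted p = 0.0239) and by 2.48 in ePRBoe (adjusted p = 0.0103), where it stood at 20.1, 15.5 and 13.1 FPKM against 2.62, 2.86 and 3.23 in the controls. Gjc1, another connexin, rose by 1.49 (adjusted p = 0.021) and Ttyh1, an anion channel relative, by 2.42 (adjusted p = 0.0315) in ePRBoe, and Mcoln2, a lysosomal cation channel, rose by 0.91 in ePRAoe (adjusted p = 0.0153). Gjc1 was under 1 FPKM in every control, so the filter favoured its rise. With any library left out the fall of Gjb1 in ePRAoe and the rise of Gja1 in ePRBoe held. Calls were lost for Gja1 in ePRAoe without Wnt7acre or ePRAoe replicate 1 (adjusted p = 0.0662 and 0.0677), Wnt7acre replicate 2 (0.125) or ePRAoe replicate 3 (0.129), and for Mcoln2 without Wnt7acre or ePRAoe replicate 2 or 3 (0.0676 to 0.0797). In ePRBoe Gjc1 was lost without Wnt7acre replicate 3, without ePRAoe replicate 2, or without ePRBoe replicate 2 or 3 (adjusted p = 0.0678 to 0.0819), and Ttyh1 without Wnt7acre replicate 3, without ePRAoe replicate 2, or without ePRBoe replicate 1 or 3 (0.0612 to 0.246). In the same libraries the stromal marker sum was higher than in every control.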

How the data were processed

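RNA of 9 laser-captured samples was measured, 3 for each of Wnt7acre, ePRAoe and ePRBoe. The authors deposited 1 table of FPKM for 15158 gene symbols, per the file headers. Per the submitters' processing notes the tools were STAR 2.5.2b on mm10, featureCounts 1.5.0-p1 (Subread), edgeR 3.28.0 and limma 3.42.2. Neither the annotation nor the gene lengths and strand setting behind the FPKM is stated there. Library depth is not stated. The low values of 358 of 860 low genes (41.6%) fell on common steps of at least 0.02 FPKM within 0.0006 FPKM, which with annotated lengths implied a median of 11.6 M reads (quartiles 8.76 and 13.1 over 346 genes), or about 23.2 reads per FPKM at a length of 2 kb. Being approximate, it was not used for counting intervals.

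Values were taken as log2(FPKM + 1), so changes of low genes are understated, and tested where at least 1 FPKM was reached in at least 3 libraries. limma 3.58.1 in R 4.3.3 fitted genotype and sequencing run over all 9 libraries with trended moderated variances (4 residual and 3.64 prior degrees of freedom). Tests were two-sided, with Benjamini-Hochberg adjustment over all 12347 genes and a threshold of 0.05. Run 1 held Wnt7acre replicate 3, ePRAoe replicate 2 and all ePRBoe libraries, run 2 Wnt7acre replicate 2 and ePRAoe replicate 3, and run 3 Wnt7acre and ePRAoe replicate 1. The procedure was tested on simulated data with independent noise and no differences between runs. That test does not show how the fit copes with runs or outlying libraries. Positions came from GENCODE M21, in which all 170 genes were found, as were 14970 symbols of the table (98.8%).

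The 170 genes and the partner and marker lists were chosen with earlier results of these data known. Named were Aqp5, Aqp8, every gene called in a comparison, the 2 with the highest mean FPKM in each of 20 role groups, and up to 3 called genes per partner list and comparison with the smallest adjusted p; further names are said to have been chosen after their values were seen. Some genes that this rule names are not reported here. Libraries are given singly where a called gene averaged 5 FPKM or more in some genotype. Alternatives were the pseudocount, the filter, the scaling, the run term, the replicate number, the variance model, the libraries in the fit, and leaving out each library.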

Additional observations from a re-analysis of the deposited data

How the results depend on the processing

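With 3 libraries a genotype and ePRBoe in 1 run, the number of genes called depended on the fit. Over 20 alternatives and the named genes, partner genes included, 299 values lost the threshold, 81 gained it and 3859 kept their status. No call of a named gene reversed. These fits share most or all libraries with the reported one, so a reversal was unlikely and its absence does not show that directions are stable. The count of 20 for ePRAoe was 11 with only the genotypes compared, and 7 to 29 when 1 library was left out. The count of 13 for ePRBoe was 6 with a mean of at least 5 FPKM required, 25 with no run term, and 1 to 16 when 1 library was left out. The count of 0 between ePRBoe and ePRAoe was 4 with only the genotypes compared and 0 to 3 when 1 library was left out. A replicate block in place of the run term gave 11, 23 and 0; same-numbered libraries correlated in their deviations at -0.23 to 0.17, so the numbers were not taken to pair the samples. The causes of these shifts were not tested. Genes under about 1 FPKM rest on few reads, and a missed threshold there does not show that a level stayed the same.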
